A study of Oryza sativa with 12 samples.

Results

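The 8 rice genes described here act where leaves and branches start: the leaf initiation rate genes PLA1, PLA2 and PLA3, and the meristem genes LAX1, LAX2, FON1, FCP1 and LOG. They were chosen by name, as identifiers Os10g0403000, Os01g0907900, Os03g0790600, Os01g0831000, Os04g0396500, Os06g0717200, Os04g0473800 and Os01g0588900 in that order, and all 8 were among the 32552 deposited identifiers. The tables carry identifiers only, so the symbols are those of the gene list. A RefSeq gene table (assembly ASM3414082v1) held 7 of the 8 symbols, all but FCP1, each on the chromosome that the identifier's first digits give (10, 1, 3, 1, 4, 6 and 1), but it paired none with an identifier.

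Gene expression was measured by RNA sequencing of rice (Oryza sativa) leaf primordia, the youngest leaves around the shoot apex. Of the 12 libraries, 3 came from the line ospin1c ospin1d, labelled a knockout of OsPIN1c and OsPIN1d, 3 each from ospid C1 and ospid C2, both labelled OsPID knockout, and 3 from WT, the cultivar Nipponbare. No group carried another allele or treatment in the labels, which do not say how the knockouts were made, how old the plants were, or whether replicates came from separate plants. The p-values therefore measure the spread between these libraries, which may be technical. PIN proteins carry auxin out of cells, and PINOID-type kinases such as OsPID phosphorylate them. By choice, the targeted genes were to be read only if a source used here paired them with identifiers. None did, so the targeted genes were not checked, although the members and lists were read without such a pairing.

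A shoot apical meristem produces leaves at a regular interval, the plastochron, and leaves a new axillary meristem in the axil of each leaf, from which tillers and panicle branches grow. In rice, loss of PLA1, PLA2 or PLA3 speeds up leaf initiation, loss of LAX1 or LAX2 impairs axillary meristem formation, and FON1, FCP1 and LOG act in keeping a meristem at its size and activity. Auxin maxima set by PIN carriers mark where leaves arise, and LOG makes active cytokinin in the meristem.

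The libraries held 15211547 to 16422849 reads, a depth that the spacing of the FPKM values gave (fragments scaled by gene length and library size). Correlations between libraries of a group, on log2(FPKM + 1) over 21250 genes, were 0.960 to 0.980. The labelled tissue was checked with identifiers listed from general knowledge, which no source used here annotates. All 4 listed for leaf primordia and all 3 listed for the shoot meristem were at 1 FPKM or more in every library, at 3.23 to 35.9 FPKM and 27.1 to 223 FPKM. Of 4 listed for green leaves, 2 were at 1 FPKM or more in every library and the other 2 ranged over all libraries from 0 to 1.37 FPKM. The summed green-leaf level was 3176 to 4557 FPKM in ospin1c ospin1d, 1646 to 3484 in ospid C1, 2330 to 3808 in ospid C2 and 1188 to 2057 in WT, higher in every ospin1c ospin1d and ospid C2 library than in any WT library; its part in the results below was not tested. In bulk tissue, fewer cells of a type and less RNA per cell cannot be told apart.

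FCP1 fell to 48.3% of its WT level in ospid C1 and 45.7% in ospid C2. LAX1 fell to 39.1% of WT in ospid C2 and stood at 60.1% in ospid C1, where the difference just missed the threshold, and it was lower in the ospid lines than in ospin1c ospin1d. No other difference of a member from WT passed the test.

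**Figure D1:**
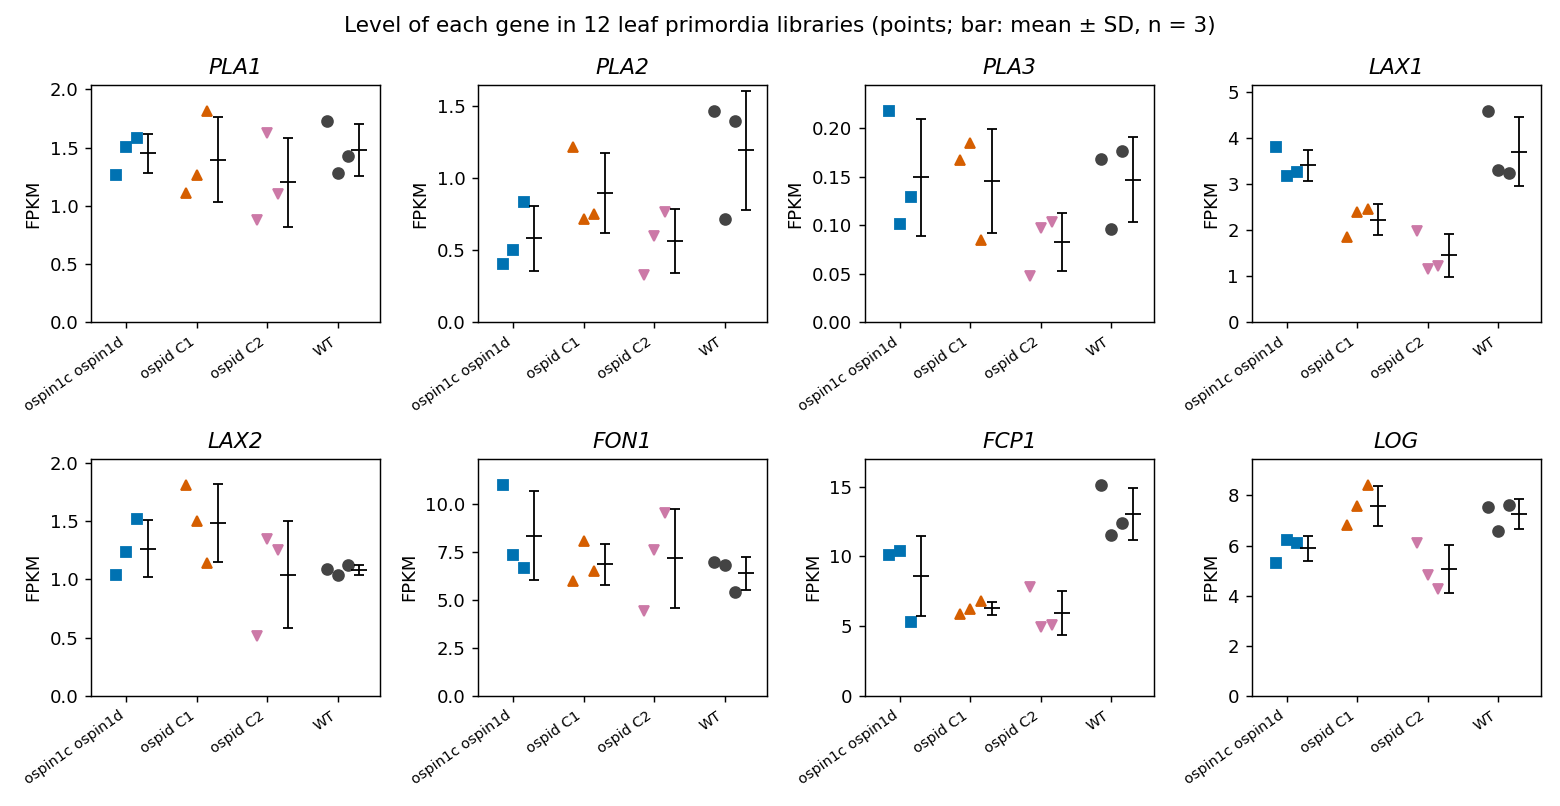
FPKM (vertical axis, from 0, scaled per panel) of the 8 genes in each of 12 libraries, by genotype; points are libraries and bars show the mean ± SD (n = 3). The 6 ospid libraries lie below every WT library for FCP1 (4.95 to 7.78 against 11.6 to 15.1 FPKM) and for LAX1 (1.14 to 2.45 against 3.23 to 4.57 FPKM). The ospin1c ospin1d libraries also lie below every WT library for FCP1 (5.29 to 10.4 FPKM) but overlap WT for LAX1.

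Levels per length placed the members low to middling in this tissue. In WT the mean was 13.0 FPKM for FCP1, 7.25 for LOG, 6.40 for FON1, 3.70 for LAX1, 1.48 for PLA1, 1.19 for PLA2, 1.08 for LAX2 and 0.147 for PLA3. FCP1 stood above 63.4% of the 21250 tested genes in WT, LOG above 49.8% and LAX2 above 10.1%. Neighbours in this order did not overlap between FCP1 and LOG, FON1 and LAX1, LAX1 and PLA1, or LAX2 and PLA3, while LOG and FON1, PLA1 and PLA2, and PLA2 and LAX2 did. FCP1 led in WT and, overlapping FON1, in ospin1c ospin1d. LOG led in ospid C1 at 7.60 FPKM and FON1 in ospid C2 at 7.18 FPKM, in both cases overlapping the next gene. PLA3 was last in every group.

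Differences were tested with limma on log2(FPKM + 1), a scale that understates the change of low genes. All 12 libraries entered a single fit over the 21250 genes that reached 1 FPKM in 3 libraries or more. Every adjusted p is from this test, adjusted over these genes by Benjamini-Hochberg, and a gene was called where it lay under 0.05. Of the 8 members 7 were tested. PLA3 reached 1 FPKM in no library, and PLA2 was tested because 1 ospid C1 and 2 WT libraries reached it. In ospin1c ospin1d against WT, limma called 0 of 7 members, where 2.31% of all tested genes were called and 0.984% called lower. Voom on recovered reads called 0. At an unadjusted limma p under 0.05 there were 2 members. The share of all tested genes at that level is not given here, so this count shows no excess. In ospid C1 against WT, 1 of 7 members was called lower, where 5.30% of all tested genes were called lower and 15.5% in either direction. In ospid C2 against WT, 2 of 7 were called lower, where 6.01% of all tested genes were called lower and 10.0% in either direction. In each of these comparisons no member was called higher. The median log2 difference of the 7 members was -0.09 in ospin1c ospin1d, beside -0.01 over all tested genes. It was -0.06 in ospid C1, beside 0.15, and -0.45 in ospid C2, beside 0.06. Median-ratio scaling brought the all-gene median for ospid C1 to 0. Changes of tested members in that line are therefore also given relative to that median or with that scaling. The 3 comparisons share the WT libraries. Where all libraries of a group lay above or below those of another, this is description only. How many of all tested genes separate in that way was not counted.

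**Figure D2:**
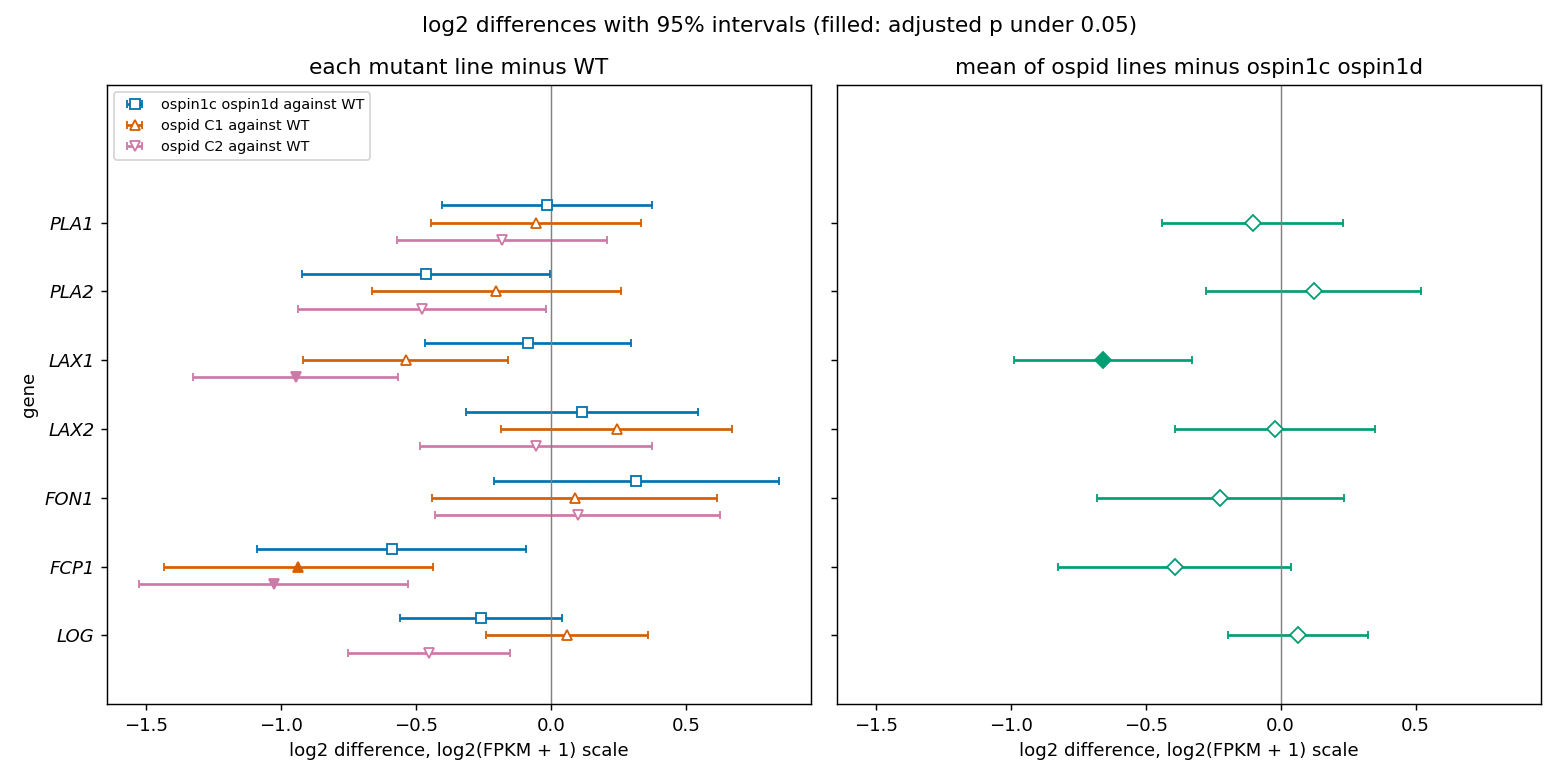
log2 differences (horizontal axis, log2(FPKM + 1) scale) of the 7 tested genes with 95% intervals; left, each mutant line minus WT; right, the mean of both ospid lines minus ospin1c ospin1d. Filled symbols passed adjusted p under 0.05: FCP1 in both ospid lines and LAX1 in ospid C2 on the left, and LAX1 on the right.

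Among the leaf initiation genes, PLA1 encodes a cytochrome P450 of the CYP78A family, expressed in rice in young leaf tissue. It stood at 1.26, 1.51 and 1.58 FPKM in ospin1c ospin1d, 1.11, 1.27 and 1.81 in ospid C1, 0.876, 1.62 and 1.10 in ospid C2, against 1.73, 1.28 and 1.43 in WT. All 4 groups overlapped. The log2 difference from WT was -0.02 in ospin1c ospin1d (SE 0.18, 95% interval -0.40 to 0.37, adjusted p = 0.982), -0.06 in ospid C1 (-0.44 to 0.33, adjusted p = 0.845) and -0.18 in ospid C2 (-0.57 to 0.21, adjusted p = 0.533). Median-ratio scaling gave -0.16 in ospid C1.

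PLA2 encodes a MEI2-like RNA-binding protein. It stood at 0.404, 0.503 and 0.838 FPKM in ospin1c ospin1d, 1.22, 0.719 and 0.752 in ospid C1, 0.326, 0.599 and 0.769 in ospid C2, against 1.47, 0.716 and 1.40 in WT. WT replicate 2 lay within the range of every mutant line except ospid C1, where it lay just under the lowest library. The mean was 48.7% of the WT mean in ospin1c ospin1d, 75.0% in ospid C1 and 47.3% in ospid C2. These differences did not pass the test, with log2 differences of -0.46 (-0.92 to -0.002, adjusted p = 0.304), -0.20 (-0.66 to 0.26, adjusted p = 0.511) and -0.48 (-0.94 to -0.02, adjusted p = 0.173). Median-ratio scaling gave -0.29 in ospid C1.

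PLA3 encodes a protein like glutamate carboxypeptidase II. It was close to the floor of what these libraries can measure, with 3 to 13 reads in each. Its mean was 0.149 ± 0.0607 FPKM in ospin1c ospin1d, 0.146 ± 0.0538 in ospid C1, 0.0827 ± 0.0303 in ospid C2 and 0.147 ± 0.0440 in WT (SD, n = 3 each). The reads summed to 27, 26, 15 and 27 in these groups, and the exact Poisson 95% intervals of 8.40 to 24.7 reads for ospid C2 and 17.8 to 39.3 for WT overlap; intervals cover counting error only. Without the filter on low values, the log2 difference from WT was 0.002 in ospin1c ospin1d (-0.12 to 0.13), -0.002 in ospid C1 (-0.12 to 0.12) and -0.08 in ospid C2 (-0.21 to 0.04). The 1 FPKM added before the logarithm is far above these levels, so even full loss would give a small log2 difference. The narrow intervals therefore do not show equal levels, and a difference was not detectable at this depth and on this scale.

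The axillary meristem genes differed from each other. LAX1 encodes a basic helix-loop-helix transcription factor found at the border of the initiating axillary meristem. It stood at 3.79, 3.17 and 3.25 FPKM in ospin1c ospin1d, 1.84, 2.38 and 2.45 in ospid C1, 1.98, 1.14 and 1.22 in ospid C2, against 4.57, 3.29 and 3.23 in WT. Every ospid library lay below every ospin1c ospin1d and WT library, and those last 2 groups overlapped. The recovered reads were 31 to 41 per library in ospid C1, 20 to 35 in ospid C2 and 57 to 77 in WT.

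LAX1 fell to 1.45 ± 0.462 FPKM in ospid C2, against 3.70 ± 0.757 in WT (SD, n = 3 each), or 39.1% of the WT mean. The log2 difference was -0.95 (SE 0.17, -1.33 to -0.57, adjusted p = 0.00642). It passed the threshold in all 18 alternative settings that tested it. In ospid C1 the mean was 2.22 ± 0.333 FPKM, 60.1% of WT, and the log2 difference of -0.54 (-0.92 to -0.16) missed the threshold at adjusted p = 0.0557. Relative to the all-gene median of that comparison it was -0.69, and with median-ratio scaling it was -0.67 at adjusted p = 0.0379. It passed in 2 of 18 alternative settings, that scaling and the fit without ospid C2 replicate 1 (adjusted p = 0.0318). It was -0.41 at adjusted p = 0.17 without WT replicate 1 and -0.45 at adjusted p = 0.184 without ospid C1 replicate 1. In ospin1c ospin1d the mean was 3.40 ± 0.337 FPKM, 92.0% of WT, with a log2 difference of -0.09 (-0.47 to 0.30, adjusted p = 0.865).

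The mean of both ospid lines was 1.83 ± 0.557 FPKM for LAX1 (SD, n = 6), against 3.40 ± 0.337 in ospin1c ospin1d (SD, n = 3). This direct comparison gave a log2 difference of -0.66 (SE 0.15, -0.99 to -0.33, adjusted p = 0.0135). LAX1 was the 1 member of 7 called there, lower, where 6.96% of all tested genes were called lower and 19.2% in either direction. Without ospin1c ospin1d replicate 1 it was -0.60 at adjusted p = 0.0605. In that fit no member was called. The summed level of the 4 leaf primordium identifiers was 59.9 to 84.1 FPKM in ospid C1, 62.1 to 75.9 in ospid C2 and 41.9 to 49.7 in ospin1c ospin1d, higher in every ospid library. WT, at 53.6 to 66.1 FPKM, lay above every ospin1c ospin1d library and overlapped both ospid lines. Against WT 0 of the 4 were called in any line. Against ospin1c ospin1d, 2 were called higher in the ospid lines, Os03g0215200 (1.17, adjusted p = 0.00906) and Os04g0536300 (0.61, adjusted p = 0.00638), and 0 lower. Of the 3 shoot meristem identifiers 1 was called lower, Os07g0129700 (-0.68, adjusted p = 0.00266). The part of these levels in the LAX1 difference was not tested.

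LAX2 encodes a plant-specific nuclear protein that binds LAX1 in rice. It stood at 1.04, 1.23 and 1.52 FPKM in ospin1c ospin1d, 1.81, 1.50 and 1.14 in ospid C1, 0.516, 1.35 and 1.25 in ospid C2, against 1.09, 1.04 and 1.12 in WT. The ospid C1 libraries lay narrowly above the WT libraries, while the other lines overlapped WT. The lowest ospid C1 library, at 1.14 FPKM, held 25 reads, and the highest WT library, at 1.12 FPKM, held 26. The log2 difference from WT was 0.11 in ospin1c ospin1d (-0.31 to 0.54, adjusted p = 0.835), 0.24 in ospid C1 (-0.19 to 0.67, adjusted p = 0.391) and -0.06 in ospid C2 (-0.49 to 0.37, adjusted p = 0.877). Without ospid C2 replicate 1, the low library, that last value was 0.14. The ospid C1 value was also 0.14 with median-ratio scaling.

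Of the meristem maintenance genes, FCP1 differed most from WT. It encodes a small secreted peptide of the CLE family, which in rice restrains the shoot meristem. FCP1 stood at 10.1, 10.4 and 5.29 FPKM in ospin1c ospin1d, 5.86, 6.23 and 6.79 in ospid C1, 7.78, 4.95 and 5.11 in ospid C2, against 15.1, 11.6 and 12.4 in WT. All 9 mutant libraries lay below all 3 WT libraries. Replicate 3 of ospin1c ospin1d lay within the ospid range and its other libraries lay between ospid and WT.

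FCP1 fell to 6.29 ± 0.467 FPKM in ospid C1, against 13.0 ± 1.86 in WT (SD, n = 3 each), or 48.3% of WT, with a log2 difference of -0.94 (SE 0.23, -1.43 to -0.44, adjusted p = 0.0232), or -1.09 relative to the all-gene median. It fell to 5.95 ± 1.59 FPKM in ospid C2, 45.7% of WT, with a log2 difference of -1.03 (-1.53 to -0.53, adjusted p = 0.0159). Each call was lost in 3 of 12 fits that left out a library. All 3 left out a library of WT or of the line compared, groups of 3 libraries each. Leaving out a library of another group cannot move the log2 difference. For ospid C1 adjusted p was 0.0774 without WT replicate 1, 0.0517 without WT replicate 3 and 0.0843 without ospid C1 replicate 1. For ospid C2 it was 0.0609 without WT replicate 1 and 0.0655 without ospid C2 replicate 2 or replicate 3. In all of these the log2 difference stayed between -0.83 and -0.97.

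In ospin1c ospin1d FCP1 averaged 8.59 ± 2.87 FPKM, 66.0% of WT, and the log2 difference of -0.59 (-1.09 to -0.09) did not pass the test (adjusted p = 0.221). Without its replicate 3 it was -0.31 at adjusted p = 0.574, and over the other fits that left out a library it reached -0.74. The mean of both ospid lines, 6.12 ± 1.06 FPKM (SD, n = 6), was not shown to differ from ospin1c ospin1d, with a log2 difference of -0.39 (-0.82 to 0.04, adjusted p = 0.176). Without ospin1c ospin1d replicate 3 it was -0.67 at adjusted p = 0.0318, and without replicate 2 it was -0.24 at adjusted p = 0.51. FCP1 is short, at least 360 bases in the counting, so 1 read was worth 0.169 to 0.183 FPKM and a library held 28 to 85 reads of it.

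**Figure D3:**
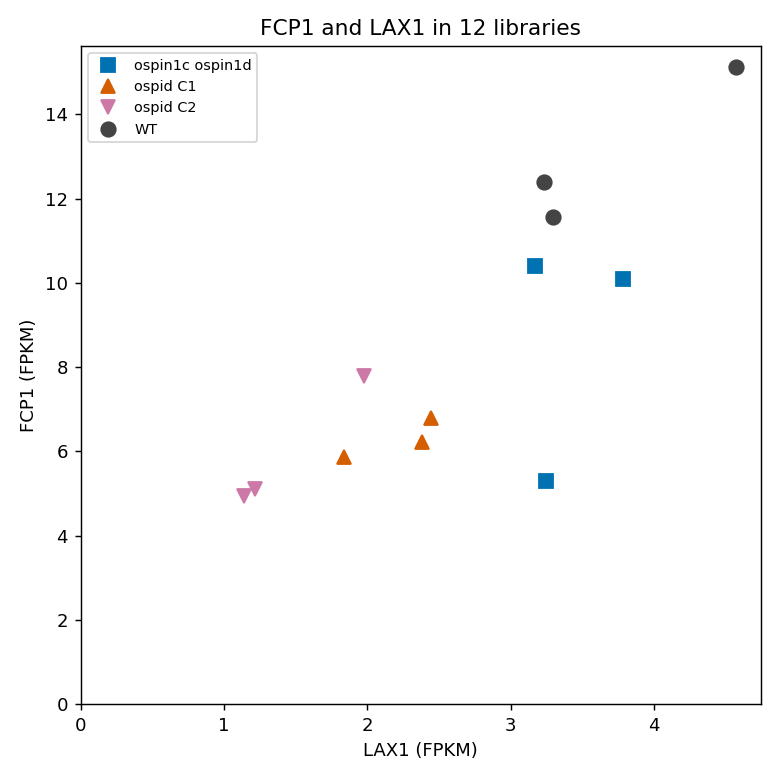
FPKM of LAX1 (horizontal axis) and FCP1 (vertical axis), 1 point per library, by genotype. The 6 ospid libraries lie lower left, WT upper right, and ospin1c ospin1d at WT levels of LAX1 with 5.29 to 10.4 FPKM of FCP1.

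FON1 encodes a receptor kinase like CLAVATA1 of Arabidopsis, which limits floral meristem size in rice. It stood at 11.0, 7.37 and 6.67 FPKM in ospin1c ospin1d, 6.01, 8.08 and 6.52 in ospid C1, 4.40, 7.61 and 9.52 in ospid C2, against 6.97, 6.82 and 5.40 in WT. Every mutant line overlapped WT. The log2 difference from WT was 0.32 in ospin1c ospin1d (-0.21 to 0.84, adjusted p = 0.583), 0.09 in ospid C1 (-0.44 to 0.62, adjusted p = 0.82) and 0.10 in ospid C2 (-0.43 to 0.63, adjusted p = 0.824). With median-ratio scaling the ospid C1 value was -0.07.

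LOG encodes the enzyme that releases active cytokinin from its nucleotide. It stood at 5.30, 6.23 and 6.11 FPKM in ospin1c ospin1d, 6.82, 7.56 and 8.41 in ospid C1, 6.10, 4.82 and 4.26 in ospid C2, against 7.55, 6.57 and 7.63 in WT. The ospin1c ospin1d and ospid C2 libraries lay below all WT libraries, though neither difference passed the test, and ospid C1 overlapped WT. The log2 difference from WT was -0.26 in ospin1c ospin1d (-0.56 to 0.04, adjusted p = 0.382), 0.06 in ospid C1 (-0.24 to 0.36, adjusted p = 0.786; -0.10 with median-ratio scaling) and -0.45 in ospid C2 (-0.75 to -0.15, adjusted p = 0.0587). The ospid C2 value passed in 1 of 19 alternative settings, at -0.57 and adjusted p = 0.017 without ospid C2 replicate 1. Without replicate 2 of that line it was -0.43 at adjusted p = 0.167, and without replicate 3 it was -0.36 at adjusted p = 0.205.

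The ospid lines, which carry the same genotype label, were set against each other. By limma 0 of 7 members were called, where 0.00941% of all tested genes were called, and 0 by voom on recovered reads. Without adjustment 2 members had a limma p under 0.05, again with no share of all tested genes at that level. The largest log2 difference of ospid C2 minus ospid C1 was -0.51 for LOG (-0.81 to -0.21, adjusted p = 0.234), whose 3 ospid C2 libraries lay below all ospid C1 libraries. For LAX1 it was -0.41 (-0.79 to -0.03, adjusted p = 0.446) and for FCP1 -0.09 (-0.59 to 0.41, adjusted p = 0.907; 0.01 with median-ratio scaling). The all-gene median of this comparison was -0.09.

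How much the libraries of a group varied was set beside the spread that counting alone gives. Over the 8 genes and 4 groups, the coefficient of variation (SD over mean) between 3 libraries was above the counting value in 24 of 32 cases. FON1, with 229 to 546 reads per library, varied by 27.8% in ospin1c ospin1d, 15.7% in ospid C1, 36.1% in ospid C2 and 13.6% in WT, against counting values of 4.90% to 5.54%. LAX2 varied by 43.8% in ospid C2 and by 3.91% in WT, against counting values of 20.7% and 20.1%.

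**Figure D4:**
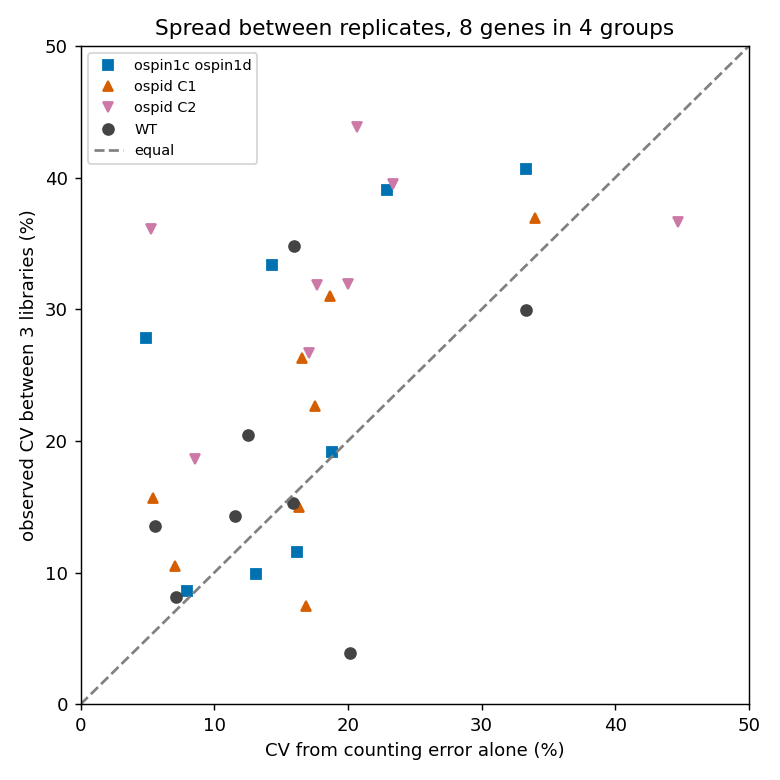
Coefficient of variation between the 3 libraries of a group (vertical axis, %) against the value that counting error alone gives (horizontal axis, %), for 8 genes in 4 groups; the dashed line marks equality. In 24 of 32 cases the point lies above the line, in 7 of 8 for ospid C2 and in 5 of 8 for WT.

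The 3 shoot meristem identifiers were read beside LAX1 and FCP1. Their summed level was 315 to 334 FPKM in ospin1c ospin1d, 234 to 276 in ospid C1, 204 to 270 in ospid C2 and 275 to 346 in WT. Os07g0129700 was lower in ospid C1 (133.5 ± 12.2 FPKM, log2 difference -0.48, adjusted p = 0.0301) and in ospid C2 (118 ± 14.7 FPKM, -0.66, adjusted p = 0.00819) than in WT (188 ± 30.5 FPKM; SD, n = 3 each). The other 2, Os03g0727000 and Os01g0302500, did not pass the test in any mutant line. Per library, LAX1 came to 0.972% to 1.14% of the summed meristem level in ospin1c ospin1d, 0.667% to 1.02% in ospid C1, 0.438% to 0.968% in ospid C2 and 1.13% to 1.32% in WT. FCP1 came to between 1.58% and 3.30% in ospin1c ospin1d, between 2.13% and 2.66% in ospid C1, between 1.89% and 3.81% in ospid C2, and between 3.98% and 4.50% in WT. As shares of that sum, both genes were lower in every ospid library than in every WT library. The FCP1 share was also lower in every ospin1c ospin1d library than in every WT library. LOG averaged 1.80% in ospin1c ospin1d, 2.92% in ospid C1, 2.14% in ospid C2 and 2.40% in WT. FON1 averaged 2.54%, 2.67%, 2.87% and 2.11% in the same groups. Os07g0129700, itself lower in both ospid lines, was the largest part of the sum. The ratio was chosen after the values were seen, and the part of meristem content in the differences was not tested.

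**Figure D5:**
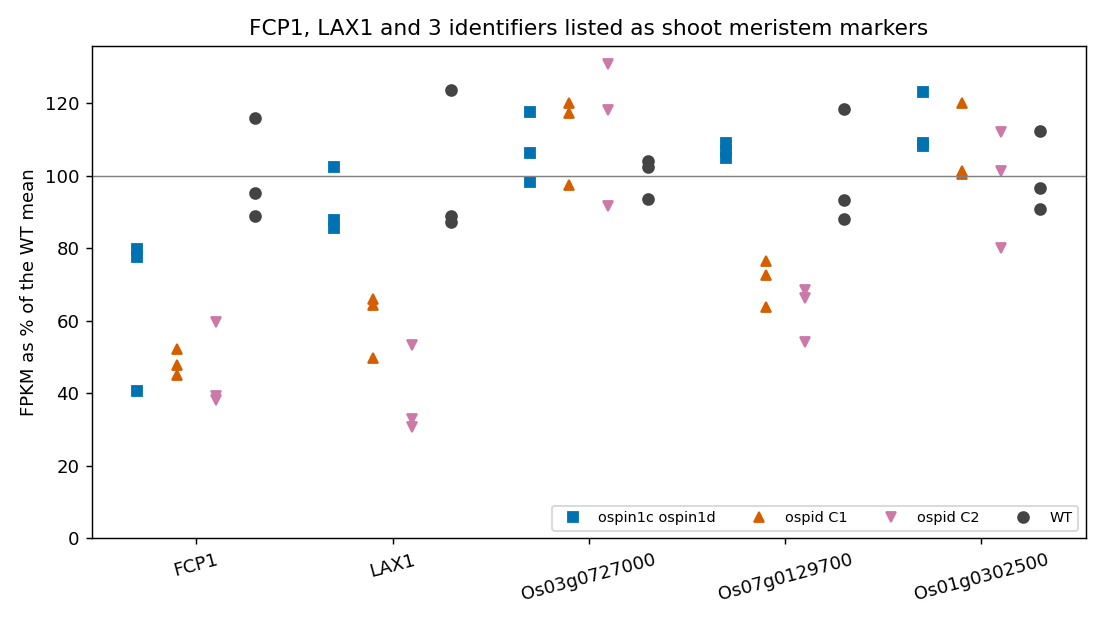
FPKM as a percentage of the WT mean (vertical axis, from 0) for FCP1, LAX1 and the 3 identifiers listed as shoot meristem markers, 1 point per library; the line marks 100%. FCP1 and LAX1 lie below all WT libraries in the 6 ospid libraries, as does Os07g0129700, while Os03g0727000 and Os01g0302500 overlap WT. FCP1 also lies below all WT libraries in every ospin1c ospin1d library.

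Other genes of the same processes were read as lists of identifiers written from general knowledge; the sources used here do not annotate them, so they are named by identifier only. Of 10 listed as relatives of LOG, 9 were tested. In ospin1c ospin1d 0 were called by limma, in ospid C1 2 were higher and in ospid C2 1 was higher, against WT. Of all tested genes, 10.2% were called higher in ospid C1 and 4.0% in ospid C2. Os03g0109300 reached 30.4 ± 6.56 FPKM in ospid C1, against 11.7 ± 3.15 in WT (SD, n = 3 each; log2 difference 1.31, adjusted p = 0.00618). Os10g0479500 reached 22.9 ± 5.89 FPKM in ospid C1 (1.27, adjusted p = 0.0209) and 20.5 ± 9.04 in ospid C2 (1.05, adjusted p = 0.0475), against 8.87 ± 2.24 in WT. LOG itself did not pass the test in any line. The median log2 difference of the 9 was -0.04, 0.03 and -0.22 in ospin1c ospin1d, ospid C1 and ospid C2.

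Of 13 identifiers listed for meristem and branching regulators, 8 were tested, and the other 5 lay at 0 to 1.12 FPKM. Each mutant line had 1 higher and 1 lower than WT, 2 of 8 called, where 2.31% of all tested genes were called in ospin1c ospin1d, 15.5% in ospid C1 and 10.0% in ospid C2. The lower one was Os04g0598300 in each line, at 9.54 ± 0.864 FPKM in ospin1c ospin1d (log2 difference -1.62, adjusted p = 0.00102), 14.7 ± 4.62 in ospid C1 (-1.08, adjusted p = 0.00737) and 11.7 ± 1.71 in ospid C2 (-1.36, adjusted p = 0.00198), against 31.5 ± 4.93 in WT (SD, n = 3 each). The higher one was Os08g0509600 in ospin1c ospin1d (132.8 ± 3.01 FPKM, 0.59, adjusted p = 0.0109) and ospid C2 (114.5 ± 3.91 FPKM, 0.38, adjusted p = 0.038), against 88.4 ± 10.4 in WT. In ospid C1 it was Os05g0389000, at 25.8 ± 4.05 FPKM, against 17.4 ± 2.84 in WT (0.54, adjusted p = 0.0336). The median log2 difference of the 8 was -0.13, 0.03 and -0.14 in the 3 lines. Of 4 identifiers listed as relatives of PLA1, 2 were among the deposited identifiers, at no more than 0.311 FPKM in sum, and none was tested.

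Likeness of pattern was described by Pearson's r of log2(FPKM + 1) over the 12 libraries, which share the 4 groups, so any gene that differs between groups in the same order scores high. Among the 21 pairs of the 7 tested members, r ran from -0.49 for FON1 and LOG to 0.80 for LAX1 and FCP1. After the group means were taken out, LAX1 and FCP1 stood at 0.63. LAX1 and LAX2 stood at -0.16, and at -0.77 after the group means were taken out. Other pairs were then about as low, FON1 and LOG at -0.75 and LAX2 and FCP1 at -0.73. Over all tested genes, the pattern closest to LAX1 was that of Os07g0678300 (r = 0.96) and then Os01g0821600 (0.95). Os01g0821600 averaged 6.64 FPKM in ospin1c ospin1d, 1.50 in ospid C1, 0.609 in ospid C2 and 7.68 in WT. The closest to FCP1 were Os03g0227900 (0.95) and Os01g0743200 (0.94), the second at 25.1, 13.3, 13.8 and 34.7 FPKM in the same groups. For the other 5 tested members the 2 closest genes reached 0.89 to 0.97.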

How the data were processed

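RNA sequencing libraries of rice leaf primordia (12, in 4 groups of 3 from the sample titles) were read as deposited. The authors deposited an FPKM value per identifier and library, per the file headers. HTSeq 0.6.0, HISAT2 2.1.0 and Bowtie2 2.2.3 appear, without roles, beside the IRGSP-1.0 build in what the submitters' processing notes list. Strand use, and how shared reads were treated, are not given in the sources used here: overlapping or duplicated genes may share reads. Depth and reads were recovered from FPKM steps: at the total found, 99.88% of test lengths were whole within 0.05 bases, and 10.0% was the median over other totals tried, and recovered reads made up 99.95% to 99.98% of depth. Recovered lengths are lower bounds.

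The test on log2(FPKM + 1) was limma (version 3.58.1, R 4.3.3) with its trend option for the prior, first tested on simulated data. Alternatives were median-ratio scaling, a pseudocount of 0.1, no filter, a filter at 5 FPKM, only the groups compared, the replicate number as a block, voom on recovered reads, and leaving out single libraries. The named genes are all 8 members, at most 4 identifiers per list by smallest adjusted p (given where called), and the 2 closest patterns per member. Members and lists were chosen with earlier results of these data known. No sequence was printed, because no source used here holds one for these identifiers.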

Additional observations from a re-analysis of the deposited data

Results flagged for a closer look

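For LAX1 and 6 listed identifiers, limma called a difference between the ospid lines and ospin1c ospin1d themselves. In this comparison 19.2% of all tested genes were called in either direction. Such a call is therefore common and not particular to the genes named here. Those looked at were 7 tested members and the tested identifiers of each list. These were 9 relatives of LOG, 8 for meristem and branching, 4 for leaf primordia, 3 for the shoot meristem and 2 for green leaves. The mean of both ospid lines minus ospin1c ospin1d was -0.66 on the log2 scale for LAX1 (adjusted p = 0.0135), with all 6 ospid libraries below all 3 ospin1c ospin1d libraries. It was -0.68 for the shoot meristem identifier Os07g0129700 (adjusted p = 0.00266). Of the identifiers listed as relatives of LOG, it was 0.92 for Os03g0109300 (adjusted p = 0.0112) and -1.70 for Os09g0547500 (adjusted p = 0.00304), in opposite directions. It was 0.71 for Os05g0389000, of the meristem and branching list (adjusted p = 0.00476). Among the leaf primordium identifiers it was 1.17 for Os03g0215200 (adjusted p = 0.00906) and 0.61 for Os04g0536300 (adjusted p = 0.00638).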

How the results depend on the processing

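Of 626 values of the 7 tested members under alternatives, 601 kept their direction and 590 also their side of the threshold. All 74 values of the 4 called results kept their direction and 67 their side. The filters, the fit of only the groups compared and the replicate block keep the log2 difference by construction. So does leaving out a library of a group not compared. In these settings the direction could not change, only the SE and adjusted p. PLA2 and genes under a stricter filter gave no value where they were not tested. The number of members called moved for ospid C1 against WT from 1 to 2 with median-ratio scaling, for ospid C2 against WT from 2 to 1 with a filter at 5 FPKM, and for the ospid lines against ospin1c ospin1d from 1 to 0 with that filter, which drops LAX1 by construction. The LOG-like list in ospid C2 went from 1 to 0 without a filter; the cause was not tested. Leaving out a library gave 0 to 2, 1 to 3 and 0 to 2 members in the same 3 comparisons, and 0 for the others. Values that changed sign with a setting were all uncalled. With median-ratio scaling they were -0.071 for FON1 and -0.10 for LOG in ospid C1, -0.039 for LOG in the ospid lines against ospin1c ospin1d, and 0.0085 for FCP1 in ospid C2 against ospid C1; voom gave -0.0018 for FON1 there.

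Leave-one-out ranges that crossed 0 were, for ospin1c ospin1d against WT, -0.073 to 0.055 (PLA1) and -0.15 to 0.044 (LAX1). For ospid C1 against WT they were -0.18 to 0.030 (PLA1), -0.020 to 0.17 (FON1) and -0.0093 to 0.12 (LOG). For ospid C2 against WT they were -0.17 to 0.14 (LAX2) and -0.11 to 0.37 (FON1). LAX2 gave -0.094 to 0.079 between the ospid lines and ospin1c ospin1d, and for ospid C2 against ospid C1 -0.20 to 0.28 (FON1) and -0.27 to 0.0082 (FCP1). Replicate numbers shared between groups showed no pairing: deviations from group means correlated at -0.227 to 0.0694 over 18 same-numbered pairs, and 3 of 12 libraries matched their own number best. With the replicate block 1, 2 and 1 members were called in ospid C1, ospid C2 and the ospid lines against ospin1c ospin1d, as without it. Depth limits PLA3, PLA2 and LAX2 most.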
